A study of Mus musculus with 12 samples.

Results

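Genes that mark mesothelium were followed in RNA-seq of the stromal vascular fraction of mouse fat, which holds precursor, vascular, immune and other cells once mature adipocytes are removed. The set holds the 9 genes Msln, Upk3b, Upk1b, Wt1, Lrrn4, Muc16, Bnc1, Krt19 and Gpm6a, chosen by symbol as markers of mesothelium, out of 24422 rows in each count table. Muc16 has no row in the tables and was not analysed here, and the other 8 were counted in all 12 libraries and passed the filter on low counts. The libraries form 4 groups of 3. All 12 carry 1 modified p21 (Cdkn1a) allele, so no group is wild type at that locus. SD mCherry (replicates 1, 2 and 3) is genotype p21+/mcherry on a standard diet. HFD mCherry (replicates 15, 17 and 20) shares that genotype and was fed a high-fat diet. HFD Tert (replicates 25, 26 and 27) is p21+/mcherry-Tert on the high-fat diet, in which the p21 promoter drives the telomerase subunit Tert. HFD TertCi (replicates 30, 31 and 33) is p21+/mcherry-TertCi on the same diet, the form of Tert known as catalytically inactive. The p21 promoter is not specific to one cell type. The design text gives the high-fat diet control genotype without naming mCherry, and the sample labels were followed. Age, sex, fat depot and pooling of animals are not given in the labels, and nothing in them says that the 3 libraries of a group came from separate animals, so p-values measure only the spread between these libraries.

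The mesothelium is a single layer of flat epithelial cells of mesodermal origin that covers the serous cavities and the organs and visceral fat pads within them. It secretes a lubricating fluid, carries keratins and surface glycoproteins such as mesothelin and mucin 16, and keeps the transcription factor Wt1 from its embryonic origin. On visceral fat it lies outside the stroma and can be carried into a stromal vascular preparation with the tissue surface. Several of its markers are shared: uroplakins are also proteins of the bladder and other urothelium, keratin 19 is made in most simple epithelia, and Wt1 is also expressed by stromal progenitors of visceral fat.

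The libraries held 16430330 to 19486965 counts. The added mCherry_Tert feature had 0 counts in all 6 mCherry libraries and 33 to 86 counts in the 6 knock-in libraries. Genes of the sampled tissue were present throughout, with the progenitor gene Dcn at 1439 CPM or more and the endothelial gene Pecam1 at 176 CPM or more in every library (CPM is a gene's count relative to the library size scaled by TMM, a normalisation over all genes, and is the unit of all levels here). The adipocyte genes Adipoq and Plin1 were at 7.85 CPM or less, and Lep and Cfd of the same list reached 12.1 and 19.2 CPM. Libraries also differed in epithelial RNA that the group labels do not name. Crisp1, a secretory gene of the epididymis, was at 641 to 14780 CPM in 8 libraries and at 0 to 0.529 CPM in 4 libraries (HFD TertCi 31, HFD Tert 27, HFD mCherry 20 and SD mCherry 2), which leaves 1 library without Crisp1 in each group. The summed CPM of 10 general epithelial genes was 946 to 2377 in 8 libraries and 5.70 to 143 in the other 4 (HFD TertCi 31, HFD Tert 27, HFD mCherry 17 and HFD mCherry 20). The summed CPM of 5 urothelial genes was 669 to 951 in SD mCherry 2, HFD Tert 25 and HFD Tert 26 and 0.294 to 83.4 in the other 9 libraries. Values for the mesothelial genes are given beside these levels where they move together.

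The 8 counted genes lie on 8 loci of GRCm38 (mm10), the build named in the submitters' processing notes, with positions from GENCODE M21: Msln on chr17:25748613-25754378 (minus strand), Upk3b on chr5:136038496-136046487 (plus), Upk1b on chr16:38773184-38800328 (minus), Wt1 on chr2:105126529-105173616 (plus), Lrrn4 on chr2:132868305-132880891 (minus), Bnc1 on chr7:81966672-81992292 (minus), Krt19 on chr11:100140810-100148665 (minus) and Gpm6a on chr8:54954843-55060871 (plus). None of the 8 shares exon sequence with another gene of the count tables in that annotation. Bnc1 shares 98 exonic bases with the pseudogene 4833418N17Rik, which has no row in the tables. Compared per kilobase of exon, over the mean of the 12 libraries, Krt19 had the highest level at 145 CPM per kb, with Upk3b at 53.7, Upk1b at 38.7, Gpm6a at 37.1 and Msln at 34.4. Wt1 stood at 10.2, Lrrn4 at 6.72 and Bnc1 at 0.976 CPM per kb. This order did not hold in every group or library. In HFD mCherry the mean of Wt1 (15.9 CPM per kb) was close to that of Upk3b (15.2), and in HFD Tert 27 Krt19 was at 19.0 CPM per kb, below Upk3b (72.5), Gpm6a (63.5) and Msln (63.2). In HFD TertCi 31 Krt19 was at 38.3 and Upk3b at 101 CPM per kb. The exon lengths are those of GENCODE M21, and the annotation behind the counts is not given in the sources used here. Each member ranged over more than an order of magnitude among the 12 libraries, up to 22.1-fold between the highest and lowest library for Upk1b.

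**Figure D1:**
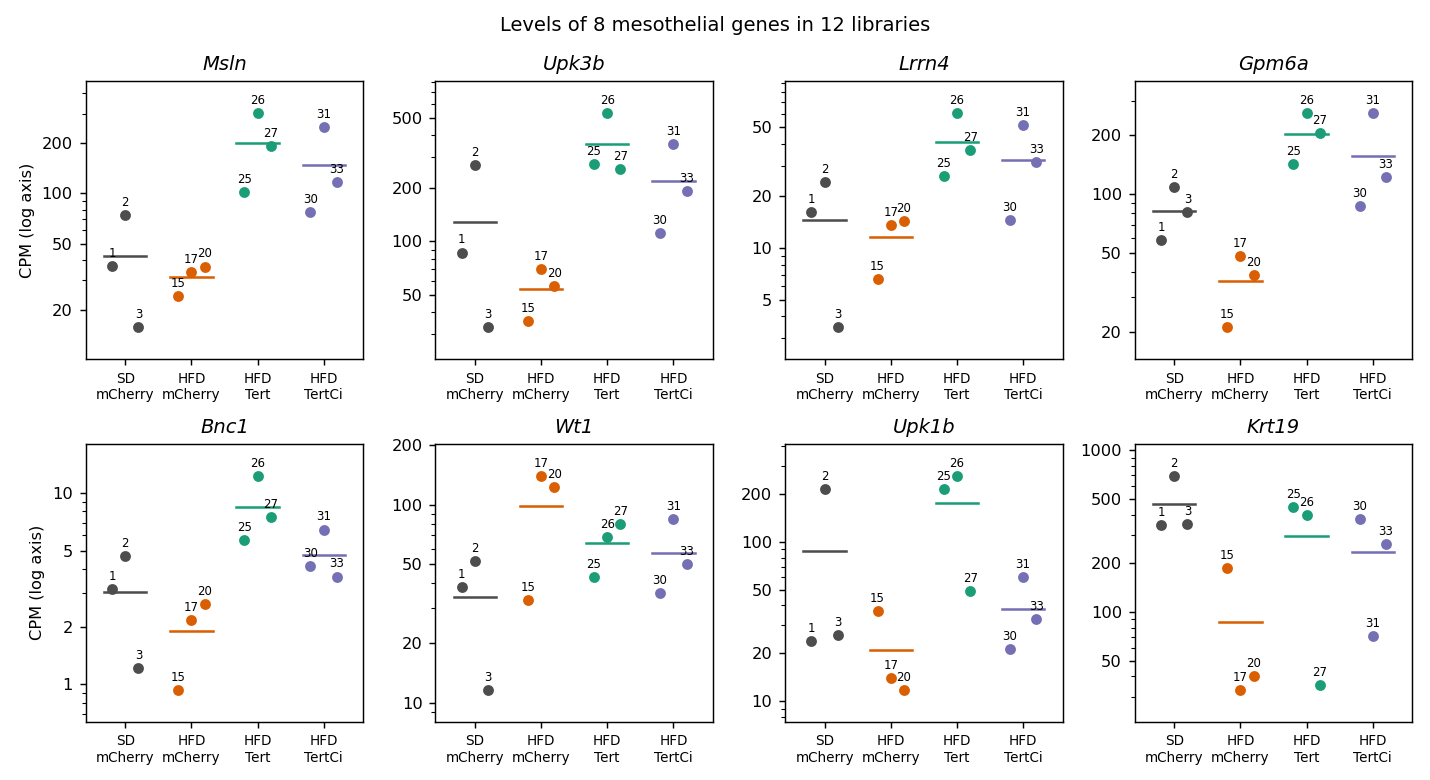
Each panel shows 1 gene, with its level in CPM on a log axis and the 4 groups along the horizontal axis. Points are libraries, numbered by replicate, and bars are group means. In the panels of Msln, Upk3b, Gpm6a and Bnc1 every HFD Tert and HFD TertCi library lies above all 3 HFD mCherry libraries, while Wt1 is highest in HFD mCherry 17 and 20.

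Mesothelin (Msln) is a surface glycoprotein anchored in the membrane of mesothelial cells, and binds mucin 16. It was at 36.8, 74.3 and 15.8 CPM on the standard diet (replicates 1, 2 and 3), at 24.1, 33.6 and 36.4 CPM in the HFD mCherry controls (15, 17 and 20), at 101, 304 and 194 CPM with Tert (25, 26 and 27), and at 77.3, 252 and 117 CPM with TertCi (30, 31 and 33). Both knock-in groups lay wholly above HFD mCherry, and the 2 mCherry groups overlapped. The fitted log2 fold change was 2.67 ± 0.624 (SE) for HFD Tert and 2.25 ± 0.614 for HFD TertCi against HFD mCherry, which did not pass correction over all genes (edgeR adjusted p = 0.187 and 0.197).

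Uroplakin 3b (Upk3b), a membrane protein of the uroplakin family, followed the same order. It was at 86.6, 269 and 32.8 CPM on the standard diet, 35.5, 69.7 and 55.8 CPM in the HFD mCherry controls, 273, 533 and 256 CPM with Tert, and 112, 358 and 192 CPM with TertCi, with replicates in the order given above. The lowest knock-in library stood above the highest HFD mCherry library, and SD mCherry 2 reached the knock-in range. The log2 fold change against HFD mCherry was 2.72 ± 0.716 (SE, edgeR adjusted p = 0.189) in HFD Tert and 2.04 ± 0.697 (adjusted p = 0.247) in HFD TertCi.

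Lrrn4, a leucine-rich repeat membrane protein, was at 16.2, 24.0 and 3.48 CPM on the standard diet, 6.63, 13.6 and 14.4 CPM in the HFD mCherry controls, 26.1, 60.5 and 37.0 CPM with Tert, and 14.5, 51.6 and 31.6 CPM with TertCi. HFD Tert lay clear of HFD mCherry, whereas HFD TertCi 30 stood only just above HFD mCherry 20. The log2 fold changes against HFD mCherry were 1.84 ± 0.669 (SE, edgeR adjusted p = 0.239) and 1.50 ± 0.663 (adjusted p = 0.332).

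Gpm6a, a membrane glycoprotein of the proteolipid family best known from neurons, had the smallest error of the 8 genes. Its levels were 58.3, 109 and 81.0 CPM on the standard diet, 21.1, 48.5 and 38.7 CPM in the HFD mCherry controls, 142, 259 and 204 CPM with Tert, and 87.5, 259 and 122 CPM with TertCi. HFD mCherry was the lowest group without overlap, also below SD mCherry. The log2 fold change was -1.19 ± 0.445 (SE, edgeR adjusted p = 0.152) for the diet, 2.48 ± 0.463 (adjusted p = 0.157) for HFD Tert and 2.11 ± 0.457 (adjusted p = 0.162) for HFD TertCi. It is the only member whose HFD mCherry values were separate from those of all other groups.

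Basonuclin 1 (Bnc1), a zinc finger transcription factor of mesothelium, keratinocytes and germ cells, was the scarcest member. Its counts were 62, 97 and 21 on the standard diet, 17, 36 and 44 in the HFD mCherry controls, 97, 230 and 127 with Tert and 81, 100 and 73 with TertCi. In CPM these were 3.16, 4.70 and 1.22, then 0.939, 2.16 and 2.63, then 5.66, 12.3 and 7.46, then 4.13, 6.44 and 3.66. Both knock-in groups lay above HFD mCherry without overlap, with log2 fold changes of 2.15 ± 0.576 (SE, edgeR adjusted p = 0.191) and 1.31 ± 0.564 (adjusted p = 0.318).

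Msln, Upk3b, Lrrn4, Gpm6a and Bnc1 thus shared part of their order of libraries, and these 5, grouped after their values were seen, are called the co-varying members. HFD Tert 26 was the highest library for all 5, and HFD TertCi 31 the second highest for all but Bnc1. SD mCherry 3 was the lowest library for 3 of them and HFD mCherry 15 for Gpm6a and Bnc1. Gpm6a differed in SD mCherry 3, where at 81.0 CPM it was above SD mCherry 1 (58.3 CPM) and every HFD mCherry library. Over the 12 libraries the Pearson correlation of log2 CPM within the 10 pairs of these genes was 0.768 to 0.950, given as a measure of likeness among libraries that share these group differences. The 18 pairs that involve Wt1, Upk1b or Krt19 gave -0.683 to 0.750. The 5 genes were grouped by these same pair values, so the higher range within the set follows from the choice and tests nothing.

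**Figure D2:**
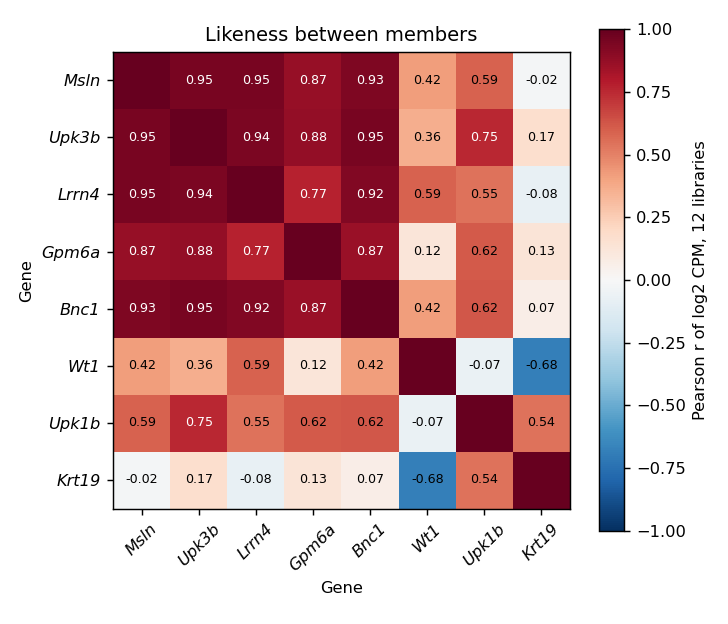
The grid shows the Pearson correlation of log2 CPM over 12 libraries for each pair of members, with the value printed in each cell and the colour scale running from -1 to 1. The first 5 genes, which were grouped by these same values, form a block of high values (0.768 to 0.950). Wt1 has lower positive values with that block (0.118 to 0.593) and Krt19 values near 0 (-0.076 to 0.166). Wt1 with Krt19 gives -0.683.

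The promoters of 4 co-varying members are shown because these genes moved together across libraries. The sequences are the 250 bases before the RefSeq transcription start (GRCm38.p6), read 5′ to 3′ on the strand of the gene. RefSeq entries were matched for 5 of the 9 members. Capitals mark matches, on either strand, to GTGGGNG (the core shared by WT1 and EGR factors), GGAATG (the TEAD core), GGGCGG (the SP1 core) or TATAAA. Gpm6a has 2 starts in the table. Its GENCODE M21 locus given above begins at 54954843, near the downstream start, and does not hold the upstream start. Which start was used in these libraries was not tested. The windows are chr2:132880863-132881112 for Lrrn4, chr5:136038246-136038495 for Upk3b, chr7:81992300-81992549 for Bnc1, and chr8:54779184-54779433 and chr8:54954478-54954727 for the upstream and downstream starts of Gpm6a.
Lrrn4: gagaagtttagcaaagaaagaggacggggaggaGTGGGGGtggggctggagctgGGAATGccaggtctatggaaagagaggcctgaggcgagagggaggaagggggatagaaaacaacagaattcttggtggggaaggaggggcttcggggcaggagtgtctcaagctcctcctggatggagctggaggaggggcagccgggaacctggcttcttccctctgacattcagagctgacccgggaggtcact
Upk3b: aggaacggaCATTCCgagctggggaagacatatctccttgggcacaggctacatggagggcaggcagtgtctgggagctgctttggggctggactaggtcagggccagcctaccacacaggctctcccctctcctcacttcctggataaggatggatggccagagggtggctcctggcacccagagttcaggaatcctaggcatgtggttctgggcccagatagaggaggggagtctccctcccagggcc
Bnc1: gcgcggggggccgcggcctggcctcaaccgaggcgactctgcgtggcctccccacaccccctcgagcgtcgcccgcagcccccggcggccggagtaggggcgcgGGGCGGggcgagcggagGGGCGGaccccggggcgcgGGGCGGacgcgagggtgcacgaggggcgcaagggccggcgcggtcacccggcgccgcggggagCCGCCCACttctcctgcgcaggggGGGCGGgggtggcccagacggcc
Gpm6a upstream: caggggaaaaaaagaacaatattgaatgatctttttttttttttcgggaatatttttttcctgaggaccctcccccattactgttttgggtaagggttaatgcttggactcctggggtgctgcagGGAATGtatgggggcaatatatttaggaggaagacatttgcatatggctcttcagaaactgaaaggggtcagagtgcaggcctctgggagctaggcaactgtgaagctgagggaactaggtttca
Gpm6a downstream: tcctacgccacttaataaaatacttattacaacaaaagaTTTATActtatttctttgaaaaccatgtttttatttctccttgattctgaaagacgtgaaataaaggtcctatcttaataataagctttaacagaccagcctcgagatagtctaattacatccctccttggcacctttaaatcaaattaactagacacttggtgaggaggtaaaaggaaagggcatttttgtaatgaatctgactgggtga

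The TEAD core was present in the Lrrn4 window (196 to 191 bases before the start), in the Upk3b window (241 to 236, minus strand) and in the upstream Gpm6a window (125 to 120). It occurs in 12.6% of the 32851 promoter windows of the same length in the table. The WT1 and EGR core was present in the Lrrn4 window (217 to 211) and in the Bnc1 window (46 to 40, minus strand), against 28.1% of all windows. In Bnc1 that match overlaps an SP1 core on the minus strand, and the window holds 4 further SP1 cores, against 32.7% of windows with at least 1. A TATAAA match lies only in the downstream Gpm6a window (minus strand), against 12.4% of all windows. The Bnc1 window is 83.6% G and C, and the 2 Gpm6a windows are 44.4% and 33.6%. These are letter matches and no binding was measured.

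Wt1, the zinc finger transcription factor that marks mesothelium and its embryonic precursors, ran the other way in the high-fat diet groups. It was at 38.5, 52.0 and 11.6 CPM on the standard diet, 33.1, 140 and 123 CPM in the HFD mCherry controls, 43.1, 68.8 and 80.1 CPM with Tert, and 35.6, 84.3 and 50.2 CPM with TertCi. HFD mCherry 17 and 20 were the highest of all 12 libraries, while HFD mCherry 15 lay below every HFD Tert and HFD TertCi library, so the groups overlapped in each comparison. The log2 fold change was 1.53 ± 0.615 (SE, edgeR adjusted p = 0.173) for the diet, -0.62 ± 0.604 (adjusted p = 0.623) for HFD Tert and -0.80 ± 0.605 (adjusted p = 0.557) for HFD TertCi. Wt1os, the antisense transcript that starts beside Wt1, was scarce, with 35 and 36 counts in HFD mCherry 17 and 20 and 2 to 25 counts in the other 10 libraries.

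Within each library, Wt1 was set against the mean log2 CPM of the 5 co-varying members, a set that was grouped after its low values in HFD mCherry were seen. The difference in log2 CPM was 1.66, 2.78 and 2.62 in HFD mCherry 15, 17 and 20, against 0.62, 0.12 and 0.0309 on the standard diet, -0.40, -0.87 and 0.0453 with Tert and 0.0604, -0.18 and -0.00644 with TertCi. The HFD mCherry libraries, replicate 15 included, lay above the other 9 without overlap, at 2.35 ± 0.607 (SD, n = 3). The difference carries the low level of those 5 genes as well as that of Wt1: in replicate 15 Wt1 itself was at 33.1 CPM, below every knock-in library, and the mean of the 5 genes was the lowest of all 12 libraries (3.40). This contrast was noticed in the values and has no test. In the same libraries the summed level of 6 adipose progenitor and fibroblast genes was 3838 to 11064 CPM in HFD mCherry and 2097 to 5265 CPM over the other 3 groups, and its part in the Wt1 values was not tested.

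**Figure D3:**
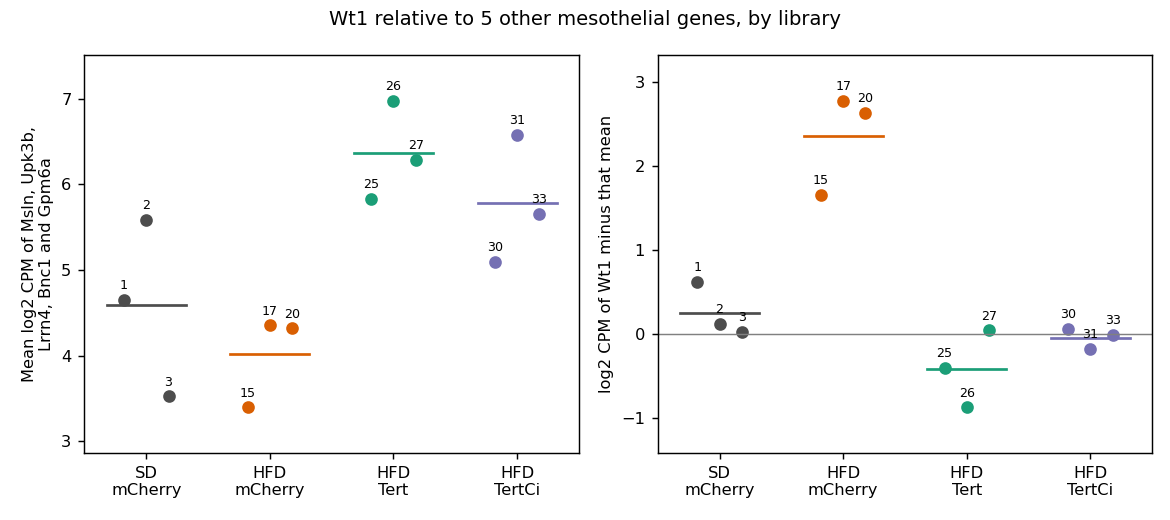
The left panel shows the mean log2 CPM of Msln, Upk3b, Lrrn4, Bnc1 and Gpm6a in each library, and the right panel log2 CPM of Wt1 minus that mean, both by group with bars at the group means and replicate numbers at the points. The HFD mCherry libraries are low on the left (3.40 to 4.35), where SD mCherry 3 lies within their range (3.52), and highest on the right (1.66 to 2.78).

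Keratin 19 (Krt19), an intermediate filament protein of simple epithelia, split the libraries in another way. It was at 344, 694 and 348 CPM on the standard diet, 187, 33.1 and 40.1 CPM in the HFD mCherry controls, 447, 398 and 35.3 CPM with Tert, and 373, 71.1 and 262 CPM with TertCi. The 4 libraries at 33.1 to 71.1 CPM were the 4 with a summed general epithelial level of 5.70 to 143 CPM, and the 8 libraries with 946 CPM or more of those genes had 187 to 694 CPM of Krt19. In that list Epcam, an epithelial adhesion protein, was at 66.1 to 543 CPM in the 8 libraries and 3.23 to 36.9 CPM in the 4, and Cldn4, a tight junction protein, at 350 to 826 CPM and 0.176 to 58.7 CPM. HFD mCherry lay below SD mCherry without overlap (log2 fold change -2.41 ± 0.967, SE, edgeR adjusted p = 0.172), and both knock-in groups overlapped HFD mCherry. With the score of the general epithelial genes added as a covariate to the edgeR model, a choice made after seeing the data, the Krt19 value was -1.50 for the diet (adjusted p = 0.0470, over 21 alternatives 0.0404 to 0.465) and 1.61 for HFD Tert (adjusted p = 0.0210, over 21 alternatives 0.0210 to 0.725), in fits that called 0.185% of all genes lower and 0.688% higher. For HFD TertCi the same model gave 0.87 and did not call Krt19 (edgeR adjusted p = 0.181). The value of -1.25 for HFD Tert without the 3 libraries rich in urothelial genes is that of 1 library, HFD Tert 27, which had the lowest general epithelial sum of all 12 (5.70 CPM).

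Uroplakin 1b (Upk1b), a tetraspanin that pairs with Upk3 proteins in the urothelial plaque, was at 23.8, 215 and 26.1 CPM on the standard diet, 37.0, 13.9 and 11.8 CPM in the HFD mCherry controls, 217, 261 and 49.2 CPM with Tert, and 21.2, 60.6 and 32.7 CPM with TertCi. The 3 libraries above 200 CPM were SD mCherry 2, HFD Tert 25 and HFD Tert 26, the 3 in which the urothelial genes Upk1a, Upk2, Upk3a, Krt20 and Psca summed to 669 CPM or more. Psca, a surface antigen of urothelium and other epithelia, was at 264 and 224 CPM in HFD Tert 25 and 26 and at 0 CPM in HFD Tert 27 and all 3 HFD TertCi libraries. In the other 9 libraries Upk1b was at 11.8 to 60.6 CPM. HFD Tert lay above HFD mCherry without overlap (log2 fold change 3.07 ± 0.971, SE, edgeR adjusted p = 0.217). Leaving out these 3 libraries, chosen after seeing the data, also leaves out the 3 highest Upk1b values and all but 1 HFD Tert library, so the lower Upk1b value this gave (1.27) was fixed by the choice of libraries and tests nothing. The part of urothelial RNA in the Upk1b values was not tested.

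**Figure D4:**
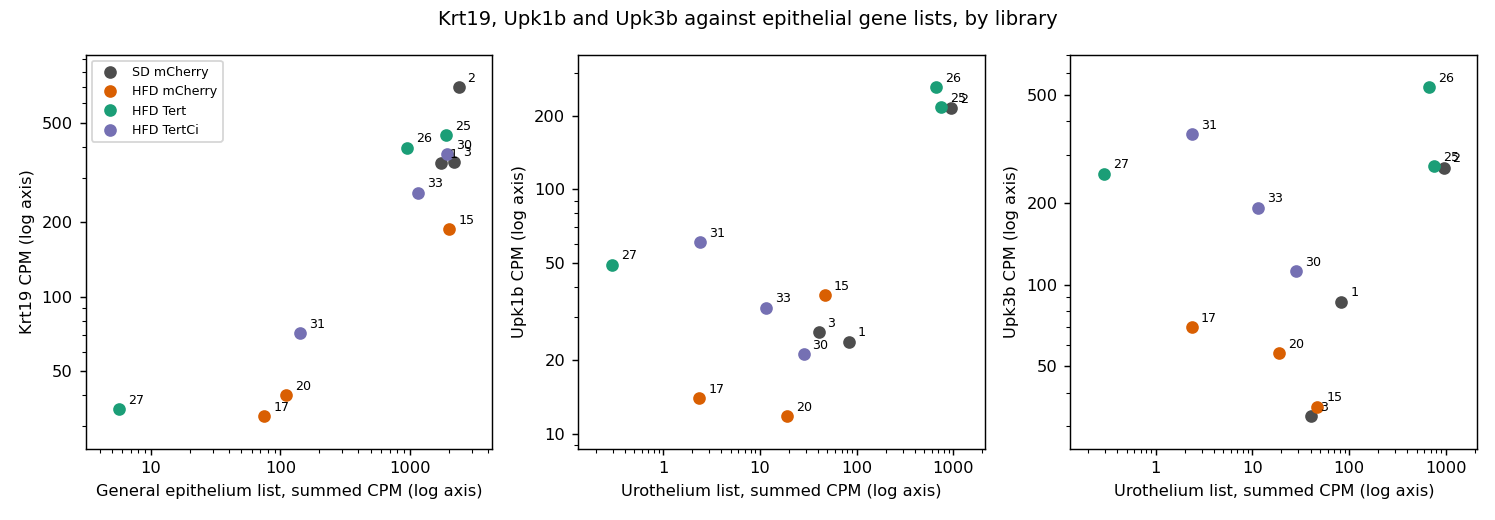
Krt19 against the summed CPM of 10 general epithelial genes (left), and Upk1b (middle) and Upk3b (right) against the summed CPM of 5 urothelial genes, 1 point per library, all axes logarithmic, replicate numbers beside the points. Krt19 is low in the 4 libraries with little epithelial RNA, Upk1b is above 200 CPM in the 3 libraries with 669 CPM or more of urothelial genes, and Upk3b also reaches 256 and 358 CPM in HFD Tert 27 and HFD TertCi 31, which have 0.294 and 2.38 CPM.

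The diet comparison set HFD mCherry against SD mCherry. Of the 8 members, 7 had a negative log2 fold change (54.1% of all genes did) and Wt1 a positive one, with a median of -0.93 against -0.075 over all 16713 genes tested. edgeR called 0 of 8 at an adjusted p under 0.05, where 0.0479% of all genes were called. At an unadjusted p under 0.05 there were 3 lower members (Krt19, Upk1b and Gpm6a), against 10% of all genes, and 1 higher (Wt1), against 14.1%. Krt19 and Gpm6a were lower without overlap, 2 of 8 against 11.6% of all genes. The shares are those of a small set chosen with these data known and are given as a description. DESeq2 called 1 member lower (Krt19), where it called 4.41% of all genes lower, and limma-voom called 0 (0% of all genes). Without HFD mCherry 15, edgeR called Wt1 higher (log2 fold change 1.95, adjusted p = 0.0474, over 21 alternatives 0.0285 to 0.525), in a fit that called 8.76% of all genes higher. The median rested on SD mCherry 2, without which it was -0.18 and Lrrn4 (0.22) and Msln (0.25) turned positive, and among the 8 libraries with Crisp1 it was -0.088, with 4 members on each side of 0. With library size as the only scaling, the median over all genes moved by -0.20, from -0.075 to -0.27, and that of the members from -0.93 to -1.19. Lists of other cell types also differed in this comparison: the median log2 fold change was 2.26 over 6 macrophage genes, 1.12 over 6 progenitor and fibroblast genes and -1.49 over 4 pericyte and smooth muscle genes. It was 1.03 over 5 endothelial genes and -1.57 over 10 general epithelial genes. Over 4 adipocyte genes it was -0.0034 (2 of 4 negative), with Cfd called lower by edgeR (log2 fold change -5.18, adjusted p = 0.0220). Negative values, like those of most members, were also found for 4 of 4 Schwann and neural genes (median -1.18) and 5 of 5 urothelial genes (-5.52). The macrophage genes summed to 1848 to 4625 CPM in HFD mCherry and 773 to 1898 CPM over the other 3 groups. Their part in the values of the mesothelial genes, which are shares of the same libraries, was not tested. In a bulk sample, fewer mesothelial cells and less RNA of these genes per cell cannot be told apart.

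The Tert cassette was assessed on the high-fat diet. Against HFD mCherry, 7 of 8 members had a positive log2 fold change (46.2% of all genes did) and Wt1 a negative one, with a median of 2.31 against -0.053 over all genes. edgeR called 0 of 8 members and 0% of all 16713 genes. At an unadjusted p under 0.05 there were 6 of 8 members higher (all but Krt19 and Wt1), against 6.62% of all genes higher. The same 6 lay above HFD mCherry in 3 of 3 libraries without overlap, against 9.99% of all genes in that direction. DESeq2 called 5 higher (Msln, Upk3b, Upk1b, Bnc1 and Gpm6a), where it called 1.81% of all genes higher, and limma-voom called 0 (0% of all genes). For Gpm6a the adjusted p ran from 8.46e-05 (DESeq2) to 0.700 over 21 alternatives, with 3 under 0.05, and its log2 fold change from 2.21 to 2.76. In the same comparison the median log2 fold change was -1.83 over the macrophage genes (6 of 6 negative), -1.20 over the progenitor and fibroblast genes (5 of 6 negative) and 1.83 over the pericyte and smooth muscle genes (3 of 4 positive), and their part in the mesothelial values was not tested. The Schwann and neural genes (median 1.70, 4 of 4 positive) and the urothelial genes (6.33, 5 of 5 positive) also had positive medians. The urothelial value came from HFD Tert 25 and 26, where these genes summed to 752 and 669 CPM. In HFD Tert 27 they summed to 0.294 CPM, below the 2.34 to 46.7 CPM of HFD mCherry. Of the urothelial genes 0 were free of overlap. The endothelial and general epithelial medians were 0.34 and 0.13, and that of the 4 adipocyte genes was 1.18 (3 of 4 positive).

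HFD TertCi gave values of the same sign for each member. The median log2 fold change against HFD mCherry was 1.47, against -0.039 over all genes, with 7 of 8 members positive, as were 47.4% of all genes. edgeR called 0 of 8 members, where 0.012% of all genes were called. At an unadjusted p under 0.05 the 5 co-varying members were higher, 5 of 8 against 5.76% of all genes, and the same 5 did not overlap, against 9.45% of all genes in that direction. DESeq2 called 3 higher (Msln, Upk3b and Gpm6a), where it called 1.1% of all genes higher, and limma-voom called 0 (0.012% of all genes). The macrophage genes had a median of -2.12, the progenitor and fibroblast genes -1.34, with Pdgfra called by edgeR (log2 fold change -1.84, adjusted p = 0.0426), and the pericyte and smooth muscle genes 1.43. The Schwann and neural genes had 1.35 (3 of 4 positive) and the urothelial genes -1.61 (4 of 5 negative). Of the 4 negative ones, Psca and Upk3a were at a mean of 0.147 CPM or less in both groups. Upk1a was level, at a mean of 3.34 CPM in HFD mCherry and 3.32 CPM in HFD TertCi (log2 fold change -0.010). The endothelial and general epithelial medians were 0.24 and 0.55, and that of the 4 adipocyte genes was 0.90 (3 of 4 positive). The diet comparison and both knock-in comparisons use the same 3 HFD mCherry libraries, so neither the like signs of the 2 cassettes nor the opposite sign of the diet is independent.

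With both knock-in groups averaged against HFD mCherry, 7 of 8 members had a positive log2 fold change (46.5% of all genes did), the median was 1.85 against -0.053 over all genes, and Gpm6a came closest to the threshold (log2 fold change 2.30 ± 0.428, SE, edgeR adjusted p = 0.0546), followed by Msln (2.46 ± 0.577, adjusted p = 0.0773). edgeR called 0 of 8 members, where 0.168% of all genes were called, and 6 of 8 had an unadjusted p under 0.05 and were higher, against 7.56%. The 5 co-varying members were higher in 6 of 6 knock-in libraries than in any HFD mCherry library, against 6.01% of all genes in that direction. DESeq2 called 5 higher, where it called 3.14% of all genes higher, and limma-voom called 0 (0.0718% of all genes). For Gpm6a the log2 fold change ran from 2.01 to 2.57 over 21 alternatives and the adjusted p from 8.21e-06 (DESeq2) to 0.440, with 7 under 0.05. In edgeR fits without 1 library, Gpm6a was called without HFD mCherry 15 (adjusted p = 0.0410), without HFD Tert 27 (0.0324) and without SD mCherry 3 (0.0418), and Msln (0.0430) and Upk3b (0.0483) also without SD mCherry 3. Those fits called 0.469%, 0.653% and 0.749% of all genes higher, in that order. With the epididymis score as a covariate edgeR called 4 members higher (Gpm6a, Msln, Bnc1 and Upk3b), where it called 3.21% of all genes higher. Among the libraries with Crisp1 the median was 1.83. In the 4 libraries without Crisp1, 1 per group, the summed level of the 5 co-varying members was 481 CPM (SD mCherry 2), 148 CPM (HFD mCherry 20), 698 CPM (HFD Tert 27) and 927 CPM (HFD TertCi 31).

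**Figure D5:**
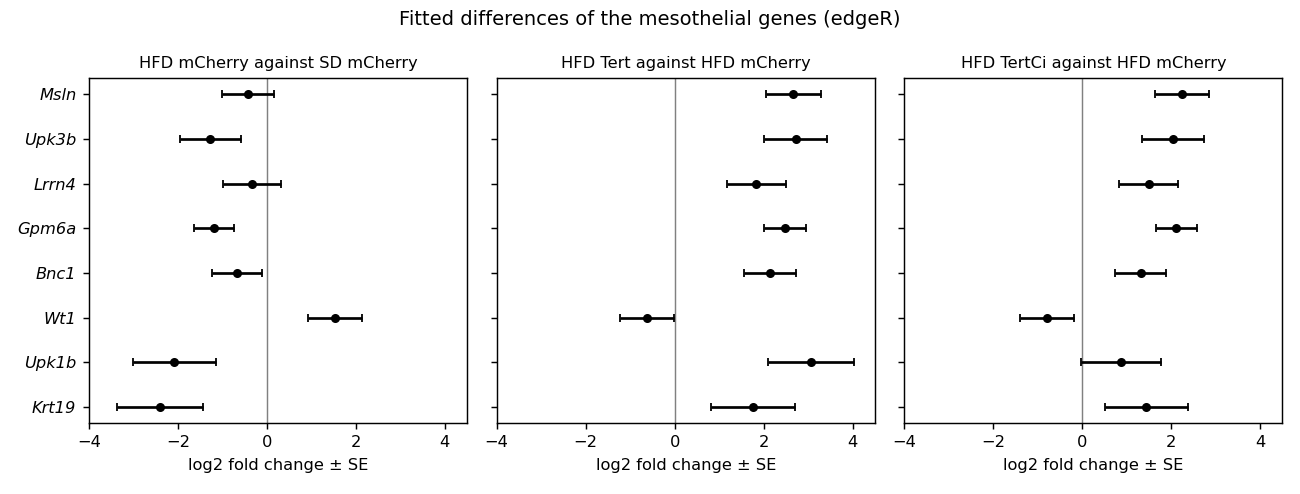
Fitted log2 fold changes of the 8 members with their standard errors (bars) in the diet, Tert and TertCi comparisons, from the edgeR model over all 12 libraries. Apart from Wt1, the members lie below 0 for the diet and above 0 for both cassettes, no value passed correction over all genes, and the 3 panels use the same HFD mCherry libraries, so their signs are not independent.

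HFD Tert and HFD TertCi were also compared with each other. All 8 members had a positive log2 fold change (48.2% of all genes did), from 0.18 (Wt1) to 2.20 (Upk1b), with a median of 0.40 against -0.011 over all genes. edgeR called 0 of 8 members and 0% of all genes, DESeq2 and limma-voom each called 0 members (0.0507% and 0% of all genes), and 1 member (Upk1b, unadjusted p = 0.0394 in edgeR) was higher at an unadjusted p under 0.05, against 0.766% of all genes. No member was free of overlap between the 2 groups, where 5.13% of all genes were. The 95% interval of the difference was -0.60 to 1.34 for Gpm6a, -0.87 to 1.72 for Msln and -0.81 to 2.17 for Upk3b. A level 2-fold higher in HFD Tert was within these intervals and a level 2-fold lower was not. For Lrrn4 (-1.09 to 1.77), Wt1 (-1.15 to 1.51) and Krt19 (-1.71 to 2.35) both levels were within the interval. The Upk1b interval was 0.13 to 4.28, and 2 of the 3 HFD Tert libraries, and no HFD TertCi library, had 669 CPM or more of urothelial genes. The median was 0.13 without HFD Tert 26 and 0.99 without HFD TertCi 31. The sign of the small differences depended on single libraries: without HFD Tert 26, Lrrn4 was at -0.0476 and Msln at -0.0146, without HFD TertCi 30, Wt1 was at -0.0703 and Lrrn4 at -0.0125, without HFD Tert 27, Wt1 was at -0.0177, and without HFD Tert 25 or HFD TertCi 31, Krt19 was at -0.12 or -0.11. In the F-test over the 4 groups, edgeR called 0 of 8 members (0.012% of all genes were called). Of the 8, 5 had an unadjusted p under 0.05 (Gpm6a, Msln, Bnc1, Upk3b and Upk1b), against 20.2% of all genes. DESeq2 called 5 in this test, where it called 13.2% of all genes, and limma-voom 0 (0% of all genes).

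A further list of 12 genes known from mesothelium was read in the same fits: Krt7, Krt8 and Krt18 (keratins), Calb2 (calretinin), Cldn15 (a claudin), Nkain4, Pkhd1l1, Rspo1 (a Wnt potentiator), Aldh1a2 (a retinoic acid synthase), Tm4sf5, Pdpn (podoplanin) and Ezr (ezrin). Tm4sf5 was at 0.579 CPM or less and was not tested. None of the 11 tested genes was called by edgeR in any of the 5 comparisons, and their median log2 fold change was -0.99 for the diet, 0.79 for HFD Tert and 0.58 for HFD TertCi. At an unadjusted p under 0.05, 3 of 11 were higher and 2 lower for the diet, against 14.1% and 10% of all genes, 4 were higher for HFD Tert, against 6.62%, and 1 was higher and 1 lower for HFD TertCi, against 5.76% and 8.92%, which for TertCi is near the share of all genes. Nkain4, a membrane protein that interacts with the sodium pump, was at 12.9 ± 4.44 CPM in the HFD mCherry controls, 55.1 ± 20.3 with Tert and 52.2 ± 32.3 with TertCi (SD, n = 3), and Nkain4 and Rspo1 lay above HFD mCherry in both knock-in groups without overlap. Pkhd1l1 did so in HFD Tert, which makes 3 of 11 for Tert and 2 of 11 for TertCi, against 9.99% and 9.45% of all genes. Pdpn, a mucin-like surface protein also present on fibroblasts and lymphatic endothelium, averaged 80.6 ± 19.7 CPM on the standard diet, 318 ± 155 in the HFD mCherry controls, 210 ± 50.4 with Tert and 176 ± 54.6 with TertCi. Aldh1a2 had the same order of groups as Wt1 (18.9 ± 2.72, 55.6 ± 18.3, 35.9 ± 10.9 and 28.7 ± 10.6 CPM), and Pdpn, Aldh1a2 and Cldn15 were higher in HFD mCherry than in SD mCherry without overlap, 3 of 11 against 13.9% of all genes. The other 8 of 11 had a negative log2 fold change for the diet, against 54.1% of all genes. Of these, Krt18 (-2.21) was lower without overlap, 1 of 11 against 11.6% of all genes. Krt7 (-3.06) and Rspo1 (-1.59) were the 2 lower at an unadjusted p under 0.05. Krt7 averaged 90.8 ± 115, 10.9 ± 12.9, 175 ± 136 and 26.5 ± 5.96 CPM in the 4 groups, and its profile was among the 3 nearest to that of Upk1b (Pearson r = 0.946 over 12 libraries).

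The genes most like the 8 members in profile were ranked by the Pearson correlation of log2 CPM with the mean standardised profile of the members over the 12 libraries. The first 10 were Fras1 (0.954), Isl1 (0.952), Bcam (0.948), Anxa8 (0.948), Bcas1 (0.942), Lpcat4 (0.939), Arhgap44 (0.934), Apol7a (0.932), Nkain4 (0.925) and Mtus1 (0.924). Fras1 is an extracellular matrix protein of epithelial basement membranes, Isl1 a LIM homeodomain factor, and Bcam a laminin-binding surface protein, the most abundant of the 10 at a mean of 199 CPM. Against single members, Lrrn4 was nearest to Pkhd1l1 (0.983), Kif13a (0.974) and Sema3a (0.970), Gpm6a to Cytl1 (0.978), Lgals7 (0.968) and Fgf9 (0.964), and Msln to Lrrn4 (0.950), Upk3b (0.948) and Gjb5 (0.946). Upk3b was nearest to Bcam (0.961), Anxa8 (0.958) and Fras1 (0.953), and Bnc1 to Upk3b (0.949), Chst4 (0.940) and Isl1 (0.936). The 3 members outside the co-varying set had other neighbours. Wt1 was nearest to Fignl2 (0.980), Fam126a (0.979) and Has1 (0.978), Krt19 to Sfn (0.977), Decr2 (0.972) and Spire2 (0.971), and Upk1b to Ndrg2 (0.959), Krt7 (0.946) and Fa2h (0.927). Has1, a hyaluronan synthase, was at 1570 and 1558 CPM in HFD mCherry 17 and 20 and at 128 to 923 CPM in the other 10 libraries.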

How the data were processed

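Poly-A selected RNA-seq was made from 12 libraries, per the labels' protocols. The authors deposited raw read counts per gene symbol, 1 table per library, and the submitters' processing notes name Subread, SAMtools, featureCounts 1.6.4 and the build mm10. The annotation, the use of strand and the sequencing batch are not given in the sources used here. filterByExpr, given the 4 groups, kept the genes tested (16713 of 24422, with 0 rows lacking a name). Counts were scaled by TMM (factors 0.854 to 1.15) and fitted in 1 robust quasi-likelihood model over all 12 libraries with no covariate (edgeR 4.0.16 in R 4.3.3). Tests were 2-sided with Benjamini-Hochberg adjustment over all genes of a comparison and called at 0.05. Log2 CPM used a prior count of 2. Intervals of differences are 95% and come from that fit. Degrees of freedom were 8 (residual) and 2.71 (prior, median), and the common biological coefficient of variation came to 0.536.

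Samples were grouped by title. All 8 counted members and the 12 further mesothelial genes are named, with Crisp1, the 2 most abundant genes of other lists where a result touches them, and the genes nearest in profile. Upk2, Upk3a, Krt20, Adipoq, Plin1, Pdgfra and Wt1os were named outside that rule. Members and lists were chosen with earlier results of these data known. Protein sequences were not used here. The fit was also run on simulated counts with known changes, and the share of changes it recovered is not reported here. Alternatives were DESeq2 1.42.0, limma-voom (limma 3.58.1), library size scaling, no filter, only the groups compared, covariates, library subsets and leaving out each library.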

Additional observations from a re-analysis of the deposited data

How the results depend on the processing

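Of the alternatives, 2 were chosen after seeing the data: leaving out the 3 urothelium-rich libraries (669 CPM or more of the 5 urothelial genes), and the general epithelium score as a covariate. No paired analysis was possible because each replicate number occurs in 1 group.

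The number of members called, 0 in each comparison, was 5 (Tert), 3 (TertCi), 1 (diet), 5 (knock-in) and 5 (F-test) with DESeq2, 4, 1, 2, 4 and 2 with the epididymis score as a covariate, and 3, 1, 1, 3 and 1 with the general epithelium score. With library size scaling it was 1 for the knock-in mean. In fits that each left out 1 library it ran from 0 to 1 for the diet (1 without HFD mCherry 15) and from 0 to 3 for the knock-in mean (3 without SD mCherry 3, 1 without HFD mCherry 15 or HFD Tert 27). Of 16713 genes, the epididymis covariate fit called 999 (Tert), 760 (TertCi), 1916 (diet) and 1778 (knock-in) in either direction. The epithelium covariate fit called 522, 104, 313 and 896, and library size scaling 121 for knock-in. For the F-test with these covariates no number over all genes is given, so its member counts cannot be set against one.

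The median of the members was -0.088 for the diet and 1.00 for Tert against TertCi among libraries with Crisp1, and -0.15 for the diet and 1.82 for Tert (on 1 HFD Tert library) without the urothelium-rich libraries. Leaving out 1 library gave -1.12 to -0.18 for the diet, 2.01 to 2.52 for Tert, 1.26 to 1.69 for TertCi, 0.13 to 0.99 for Tert against TertCi and 1.66 to 2.09 for the knock-in mean.

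Over all genes the calls numbered 0 (Tert), 2 (TertCi), 8 (diet), 0 (Tert against TertCi) and 28 (knock-in). DESeq2 called 811, 595, 1979, 10 and 1442. The epididymis covariate gave 999, 760 and 1916 for Tert, TertCi and diet and 1778 for knock-in, and the epithelium covariate 522, 104, 313 and 896. For TertCi, diet and knock-in, the libraries with Crisp1 gave 0 in each and leaving out the urothelium-rich libraries gave 0 in each. Fitting only the groups compared gave 0, 0 and 68. limma-voom called 0 for the diet and 12 for knock-in, and library size scaling 1 for TertCi and 121 for knock-in. Leaving out 1 library gave 0 to 51 (Tert), 0 to 198 (TertCi), 0 to 2082 (diet) and 0 to 690 (knock-in), each highest without HFD mCherry 15. The cause was not tested.

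These single members changed sign, with the value over all libraries in brackets. Between Tert and TertCi, Krt19 (0.32) was -0.0365 with limma-voom and -2.75 without the urothelium-rich libraries, which left 1 HFD Tert library. Wt1 (0.18) was -0.0391 with the epithelium covariate. Leaving out 1 library gave -0.12 (without HFD Tert 25) to 0.84 for Krt19, -0.0703 (without HFD TertCi 30) to 0.58 for Wt1, -0.0476 (without HFD Tert 26) to 0.84 for Lrrn4 (0.34) and -0.0146 (without HFD Tert 26) to 1.04 for Msln (0.43). For the diet, leaving out 1 library gave -0.80 to 0.22 for Lrrn4 (-0.34) and -0.82 to 0.25 for Msln (-0.43), both highest without SD mCherry 2. Lrrn4 and Msln were 0.0192 and 0.12 for the diet among libraries with Crisp1, and 0.25 and 0.27 without the urothelium-rich libraries. Upk1b (-2.08) was 0.0306 for the diet among libraries with Crisp1. Krt19 (1.76) was -1.25 for Tert without the urothelium-rich libraries, again on 1 HFD Tert library. At this depth the scarcest member, Bnc1, rested on 17 to 230 counts per library.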
